A study of Mus musculus with 38 samples.

Results

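The subject of this report is the level of Prm1, the protamine 1 gene of sperm, on 38 arrays of stromal vascular cells from epididymal fat of mice, and the genes whose levels went with it. Arrays were selected on the measured Prm1 level, given as log2 signal relative to the 75th percentile of the same array, so that 0 is the 75th percentile. Of 38 arrays, 13 had a Prm1 level of 2 or more and are called high, 15 had a level below 0 and are called low, and 10 lay between and were left out of the comparison of the 2 classes. The 13 high arrays lay between 2.01 and 7.14, with a median of 3.09. The 15 low arrays lay between -5.15 and -0.34, with a median of -1.31. These Prm1 values chose the classes and are a description.

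The stromal vascular cells (SVCs), which are the cells of fat other than adipocytes and which the labels describe as infiltrating macrophages, came from C57BL/6J mice that were divided among 5 diets after weaning at an age of 3 to 4 weeks. LFC was the control diet with 10% of calories from fat, HFC was a diet rich in sucrose with 60% of calories from fat, and HF5, HF20 and HF75 were the HFC diet with 5, 20 or 75 µg of the botanical formulation KAL-1. LFC and HFC had 1 array each at days 6, 10 and 14 and at weeks 0, 3, 6, 9, 12, 15 and 18 (10 arrays each), and every dose had 6 arrays, 1 for each week sampled from week 3. Weeks were counted from day 14 of the experiment, so that day 14 and week 0 are the same time on the diets. They were kept apart here as time points. Each diet held 30 animals, and the design text speaks of 3 biological replicates while each diet and time point has 1 array. The sources used here do not give whether the RNA of an array came from a single animal or a pool, so what an array stands for is not settled and p-values measure only the spread between arrays. On all 38 arrays the macrophage markers were present: the mean level of the 12 marker genes lay between 0.22 and 3.99 on the high arrays and between 1.30 and 3.22 on the low arrays.

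Protamines are small arginine-rich proteins that take the place of histones in the sperm nucleus. Their messages are made in round spermatids of the testis, after meiosis, and are stored before they are translated in the elongating spermatid. The transition proteins, which sit on the DNA between the histones and the protamines, are made in the same cells. Crisp1, a secreted protein that coats sperm, is made by the epithelium of the epididymis, the duct in which sperm mature and which lies against the epididymal fat pad. Prm1 and Crisp1 are thus made in different organs.

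The sequences just before the start sites of the protamine genes are shown because the levels of these genes went together across the arrays. They are from the RefSeq promoter table (GRCm38.p6), 100 bases before the start, 5′ to 3′ on the strand of the gene, and the motif letters TGACNTCA or TATAAA on either strand are in capitals. Gapdhs has 2 start sites in the table, of which the upstream one is shown. The first motif resembles the cAMP response element, which the spermatid factor CREM binds, and the second is the TATA box. Prm1, Prm2 and Prm3 lie next to each other on chromosome 16.
Prm1 (chr16:10796824-10796923, minus strand): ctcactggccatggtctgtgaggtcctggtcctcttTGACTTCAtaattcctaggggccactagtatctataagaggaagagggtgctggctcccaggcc
Prm2 (chr16:10792106-10792205, minus strand): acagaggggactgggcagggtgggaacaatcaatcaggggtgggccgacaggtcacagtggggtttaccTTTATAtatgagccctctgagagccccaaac
Prm3 (chr16:10790915-10791014, minus strand): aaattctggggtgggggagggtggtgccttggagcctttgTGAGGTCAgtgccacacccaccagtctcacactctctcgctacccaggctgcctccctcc
Tnp1 (chr1:73015900-73015999, minus strand): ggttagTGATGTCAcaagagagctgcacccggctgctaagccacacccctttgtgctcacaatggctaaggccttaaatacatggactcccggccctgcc
H1f7 (chr15:98257308-98257407, minus strand): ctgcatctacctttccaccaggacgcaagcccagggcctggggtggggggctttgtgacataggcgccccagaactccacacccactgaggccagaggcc
Gapdhs (chr7:30743682-30743781, minus strand): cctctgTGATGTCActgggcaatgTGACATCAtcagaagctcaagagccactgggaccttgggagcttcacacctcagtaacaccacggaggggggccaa
Crisp1 (chr17:40319208-40319307, minus strand): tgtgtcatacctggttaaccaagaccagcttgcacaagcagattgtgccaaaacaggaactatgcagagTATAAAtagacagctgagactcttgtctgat

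Of the 25 genes nearest to Prm1 in level, which are given below, 21 had an entry in that table. TGACNTCA was found within 250 bases before the start of 6 of the 21 (Prm1, Prm3, Tnp1, Gapdhs, Galntl5 and 1700009N14Rik), against 7.49% of 32851 promoters. In Prm1 it began 64 bases before the start, in Prm3 60 bases and in Tnp1 94 bases. The palindrome TGACGTCA was found before none of the 21, against 1.55% of promoters, and TATAAA before 2 of the 21 (Prm2 and Cabs1), against 12.4%. Crisp1 held both TGACNTCA, 154 bases before its start, and TATAAA, 31 bases before it. The counts of the 21 are by gene, some with more than 1 start site, while the percentages are of promoters, so that the units differ. A match of letters is a description of the window and is no evidence of binding.

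Some arrays stood apart in quality. The array of HF5 at week 12, a low array, was the dimmest, with a 75th percentile of 25.8 scanner units against 88.4 to 1983 on the high arrays, and values near the background end up higher on it than on other arrays. The arrays of HF75 and HFC at week 12, both between the classes, held 6257 and 4850 spots marked as outliers. The median 75th percentile was 901 scanner units on the high arrays and 1235 on the low arrays, and the median share of probes marked well above background was 71.1% and 73.0%. On the 3 dose arrays of week 9, between 44.6% and 49.6% of signals were whole numbers, against 0.151% or less on the other arrays.

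The highest Prm1 levels were 7.14 for HF5 at week 9, 6.58 for HF20 at week 9 and 6.33 for HF5 at week 18, and the Prm1 spot was saturated on these 3 arrays, so that the values are lower bounds. HF5 and HF20 at week 3 followed at 5.58 and 5.00, then HFC at day 14 at 4.27 and HF75 at week 3 at 3.09. The other 6 high arrays lay between 2.01 and 2.89. The classes held arrays of every diet, and at week 3 all 5 arrays were high.

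At the lower end, LFC at week 12 had a Prm1 level of -5.15, HF20 at week 6 of -4.52 and HF75 at week 6 of -4.40. Prm1 was nonetheless marked well above background on all 15 low arrays, and Prm2 and Tnp1 each on 14 of the 15. By the probe of highest mean level, the low arrays thus held less of these transcripts and were not without them. They are called low Prm1 arrays for this reason. For Prm1, presence on the low arrays depended on the probe. Its probe of lowest mean level lay under the array's lowest level well above background on LFC at week 12 (-8.82 against -6.80). The same held for HFC at week 9 (-8.32 against -6.08) and HF20 at week 6 (-7.63 against -6.55). It also held for HF75 at week 6, LFC at day 10 and HF5 at week 12. It did not hold for the other low arrays. In bulk RNA, fewer cells of a type and less RNA per cell cannot be told apart. On LFC at week 12 and on LFC and HFC at week 9, the adipocyte mean was 5.05 to 5.36. It was -0.46 to 3.46 on the high arrays. The immediate early mean was -0.01 to 0.42 there and 4.08 to 5.14 on the high arrays. On HF20 and HF75 at week 6 and LFC at day 10, the mesothelial mean was -5.76 to -2.22. It was -0.64 to 3.03 on the high arrays. The mesothelial mean was also low on the low arrays of HFC at week 6 (-4.36) and HF5 at week 12 (-3.11). On the arrays between, it was -4.51 on HF5 at week 6 and -4.43 on LFC at day 6. The part of such differences in the Prm1 level was not tested.

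Just inside the upper limit lay HFC at week 0 (2.01) and LFC at week 3 (2.35), and just outside it HF75 at week 9 (1.39) and LFC at week 18 (1.01). Just inside the lower limit lay HF5 at week 15 (-0.34) and LFC at week 15 (-0.35), and just outside it LFC at day 6 (0.10) and HF75 at week 18 (0.15). Across the 38 arrays the level of the chosen probe had Pearson correlations of 0.91 and 0.97 with the other 2 Prm1 probes. By the probe of second highest mean level, the high arrays (-0.29 to 5.20) and the low arrays (-4.07 to 0.38) overlapped, and by the third (0.91 to 6.30 against -8.82 to -1.58) they did not.

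**Figure D1:**
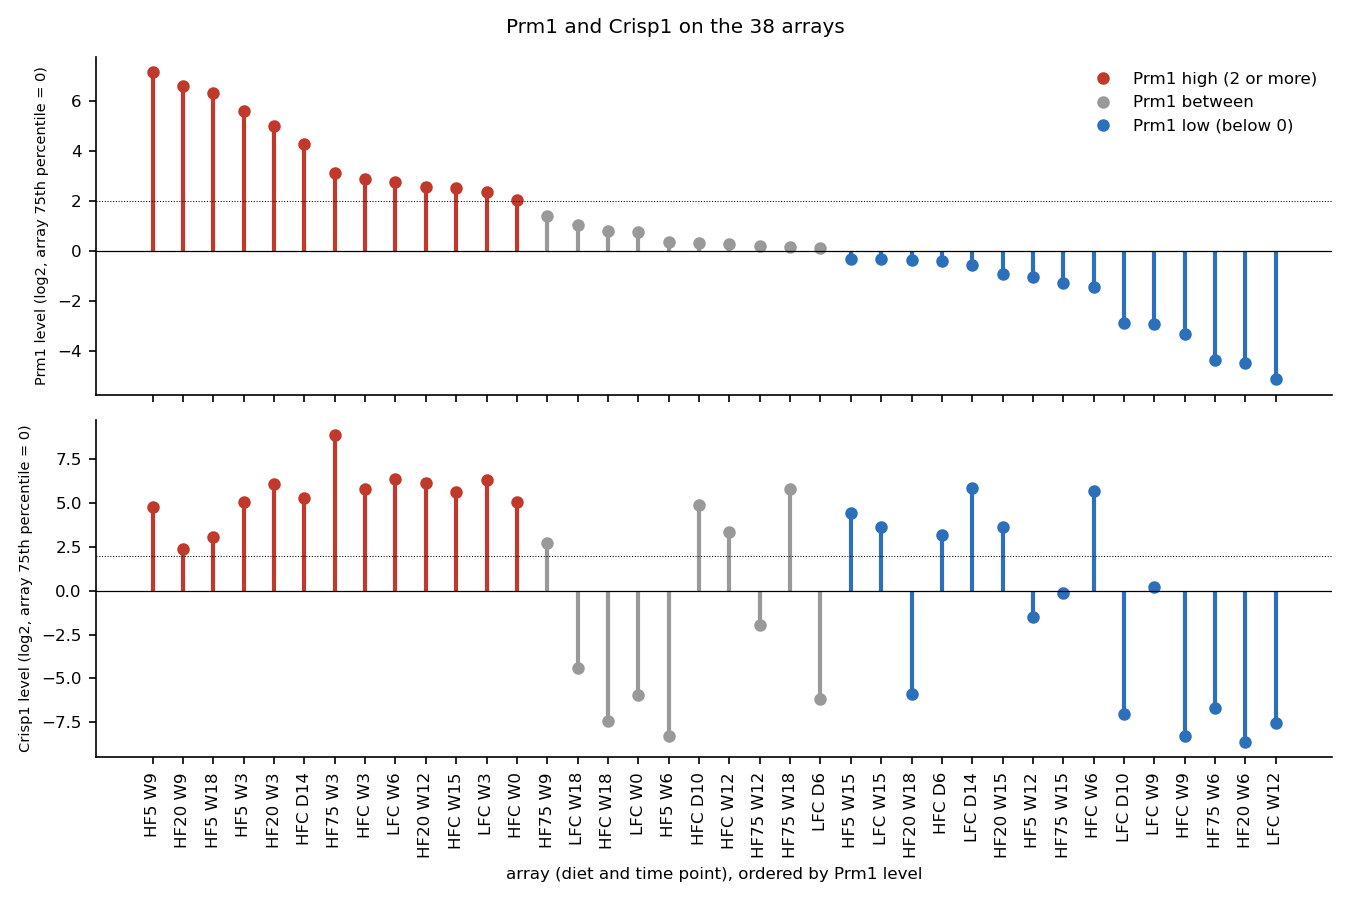
Levels of Prm1 (upper panel) and Crisp1 (lower panel) as log2 signal with the 75th percentile of the array at 0, on each of the 38 arrays ordered by Prm1 and coloured by class, with lines at 0 and 2. Prm1 falls from 7.14 to -5.15 from left to right, while Crisp1 lies above 2 on all 13 high arrays and on 6 of the 15 low arrays.

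The levels of the chromatin genes of spermatids went with that of Prm1, with correlations of 0.75 to 0.96 over the 38 arrays for the 6 genes other than Prm1. Prm2, the second protamine, had levels of 6.79, 6.62 and 6.18 on the 3 arrays of highest Prm1. Over the 13 high arrays it ran from 1.30 to 6.79 with a median of 3.53, and over the 15 low arrays from -6.29 to -0.11 with a median of -2.16. No low array reached the lowest high array, and the medians differed by 5.69 on the log2 scale.

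Tnp1, transition protein 1, ran from -0.50 to 5.21 (median 0.77) on the high arrays and from -5.40 to -1.81 (median -3.20) on the low arrays, a difference of medians of 3.97. Prm3, a protamine-like gene of the same cluster, ran from -2.53 to 2.60 (median -1.08) and from -8.70 to -2.85 (median -5.85), and was well above background on 7 of the 15 low arrays. H1f7, the testis-specific linker histone of elongating spermatids, ran from -2.45 to 3.17 (median -0.69) against -8.40 to -2.75 (median -5.38). For all 3 genes the lowest high array lay above the highest low array.

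The other 2 chromatin genes overlapped between the classes. Hils1, a linker histone of spermatids, had medians of -0.99 and -6.03, and Tnp2, transition protein 2, had medians of -2.40 and -4.54. The highest low value of Tnp2, 0.26, was that of the dimmest array. The mean level over the 7 chromatin genes lay between -1.06 and 4.00 on the high arrays and between -6.43 and -2.11 on the low arrays.

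Over all 40204 probes measured on every high and low array, 11 (0.0274%) were higher on every high array than on every low array and 0 (0%) were lower. They were probes of 9 of 29060 genes (0.031%), and no gene was lower on every high array. The 9 genes were Prm1, Prm2, Prm3, Tnp1, H1f7, H2al1k, Cabs1, Spem1 and Gm9999. Since Prm1 chose the classes and these genes follow it, the count describes the classes and supports nothing further.

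H2al1k belongs to the H2A-like histone variants of spermatids. It ran from -3.20 to 0.35 on the high arrays and from -7.18 to -3.22 on the low arrays, with medians of -1.82 and -4.07. Cabs1, a calcium-binding protein of the sperm tail, had medians of -1.43 and -7.06, and Spem1, which is needed to shed the cytoplasm of the spermatid, had medians of -2.05 and -4.98. Gm9999 had medians of -0.90 and -6.74. On the low arrays, Cabs1 stood well above background 6 times out of 15 and Gm9999 7 times.

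The number of such probes changed with single arrays. It was 19 without HFC at week 15, 26 without HFC at day 6 and 29 without the dimmest array, HF5 at week 12, and it was 11 or 12 when any other single high or low array was left out. With the upper limit at 1, so that LFC at week 18 and HF75 at week 9 counted as high, 2 probes were left, both of Prm1.

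**Figure D2:**
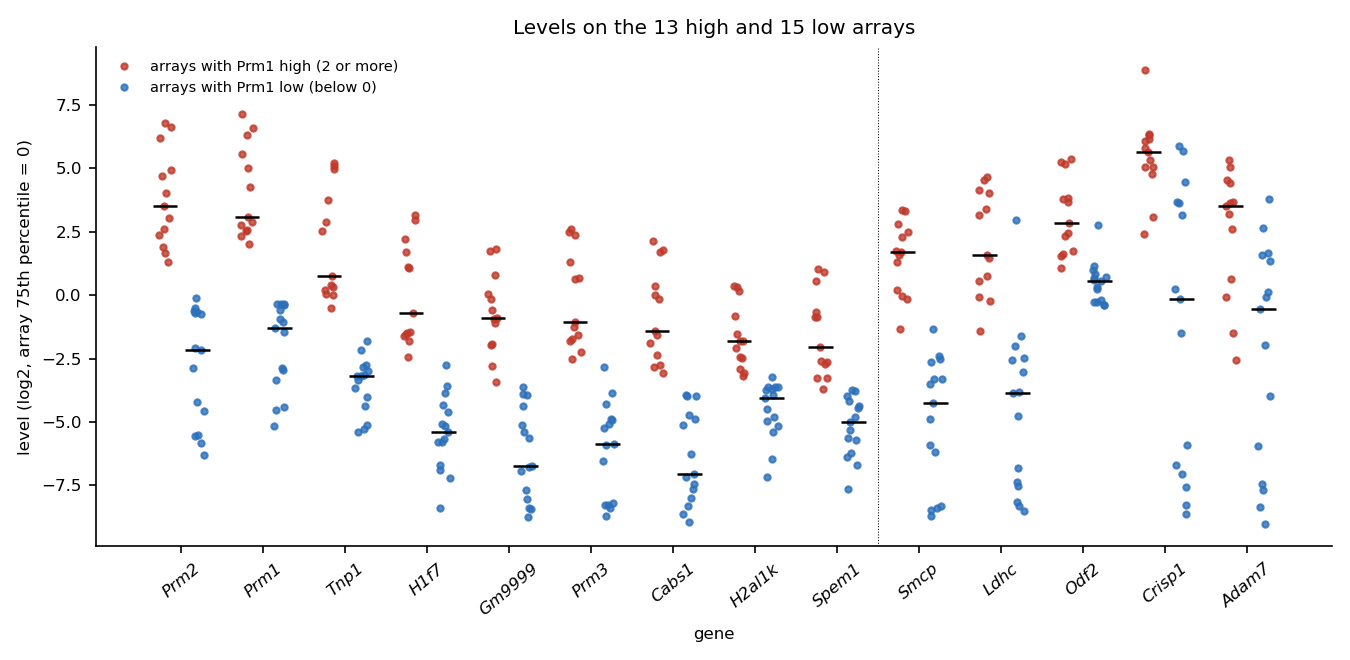
Levels (log2 signal, 75th percentile of the array at 0) of 14 genes (the 9 without overlap at the left of the dotted line, then Smcp, Ldhc, Odf2, Crisp1 and Adam7) on the 13 high and the 15 low Prm1 arrays, 1 point per array, with the median of each class as a line. The points of Prm2, Tnp1 and Prm3 do not overlap between the classes, while those of Crisp1 run from 2.40 to 8.88 on the high arrays and from -8.64 to 5.87 on the low arrays.

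The genes that went with Prm1 were ranked by the Pearson correlation of their level with that of Prm1 over the 38 arrays, which share the scaling to the 75th percentile. A correlation of 0.7 or more was found for 579 of 29353 genes (1.97%), and the median over all genes was 0.01. Of the 47 genes on 5 lists of sperm genes that the arrays held, 27 reached 0.7: all 7 of the chromatin list, 7 of 12 of the tail list, 6 of 8 of the energy metabolism list, 4 of 12 of the acrosome list and 3 of 8 of the kinase and channel list.

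The 25 genes of highest correlation were, after Prm1 itself, Prm2 (0.96), Prm3 (0.96), Cabs1 (0.95), H1f7 (0.95), Tnp1 (0.95), Gm9999, 1700009N14Rik, Smcp (0.93), Spem1, Gapdhs (0.92), Tssk3 (0.92), Lrrc18, Spata19, H2al1k, Gm6760, Actrt2, 1700031M16Rik, 1700013G24Rik, BC106175, Galntl5, LOC100047825, Oxct2a, Odf2 and Dbil5 (0.90). The 25 were taken only from genes well above background on most of the high arrays. The high arrays thus had a part in their choice, and the count over all 29353 genes carries no such filter. Of the 25, 8 are on the 5 sperm lists. With the list members set aside, the 25 genes of highest correlation outside the lists also included Col22a1, 1700021P22Rik, H2al2a, 4933411K16Rik, 1700042G07Rik, Cypt12, 1700084M14Rik and Clec2m, with correlations of 0.89. H2al2a is a further H2A-like histone variant of spermatids, with medians of -0.45 and -3.62 on the high and low arrays. Smcp lies in the capsule of the sperm mitochondria, Gapdhs is the glycolytic enzyme of the sperm tail, Tssk3 is a protein kinase of spermatids, Actrt2 is an actin-related protein of the sperm head, and Odf2 is a component of the outer dense fibres and of centrosomes in other cells.

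Smcp ran from -1.35 to 3.35 (median 1.70) on the high arrays and from -8.72 to -1.33 (median -4.27) on the low arrays, with an overlap at the edge alone. Gapdhs had medians of -0.51 and -6.27 and Tssk3 of -2.20 and -6.60. Odf2 was well above background on every high and low array, with medians of 2.84 and 0.55, and its difference of 2.28 was among the smallest of the 25. Oxct2a, a ketone body enzyme of the testis, was well above background on 1 of the 15 low arrays.

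Sperm genes outside the 25 moved less evenly. Ldhc, the lactate dehydrogenase of germ cells, had a correlation of 0.87 and medians of 1.59 and -3.84, but it reached 2.97 on the low array of HFC at day 6. The tail genes Odf4, Cabyr and Akap4 had correlations of 0.80, 0.81 and 0.76. Fscb, a fibrous sheath protein, was well above background on 9 high arrays and on no low array, and was at least 2.56-fold higher on the high arrays, taking the lowest signal well above background on each low array as the limit. Spam1, the sperm hyaluronidase, was well above background on 7 high arrays and on no low array, and was at least 1.23-fold higher.

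Other members of the sperm lists went little with Prm1. Acr, the acrosin gene, had a correlation of 0.06 with medians of -3.53 and -3.55, and Odf3 had a correlation of 0.28. Aldoart2 had a correlation of -0.26. Tekt2 and Tekt4, tektins that motile cilia also contain, had correlations of 0.56 and 0.67.

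**Figure D3:**
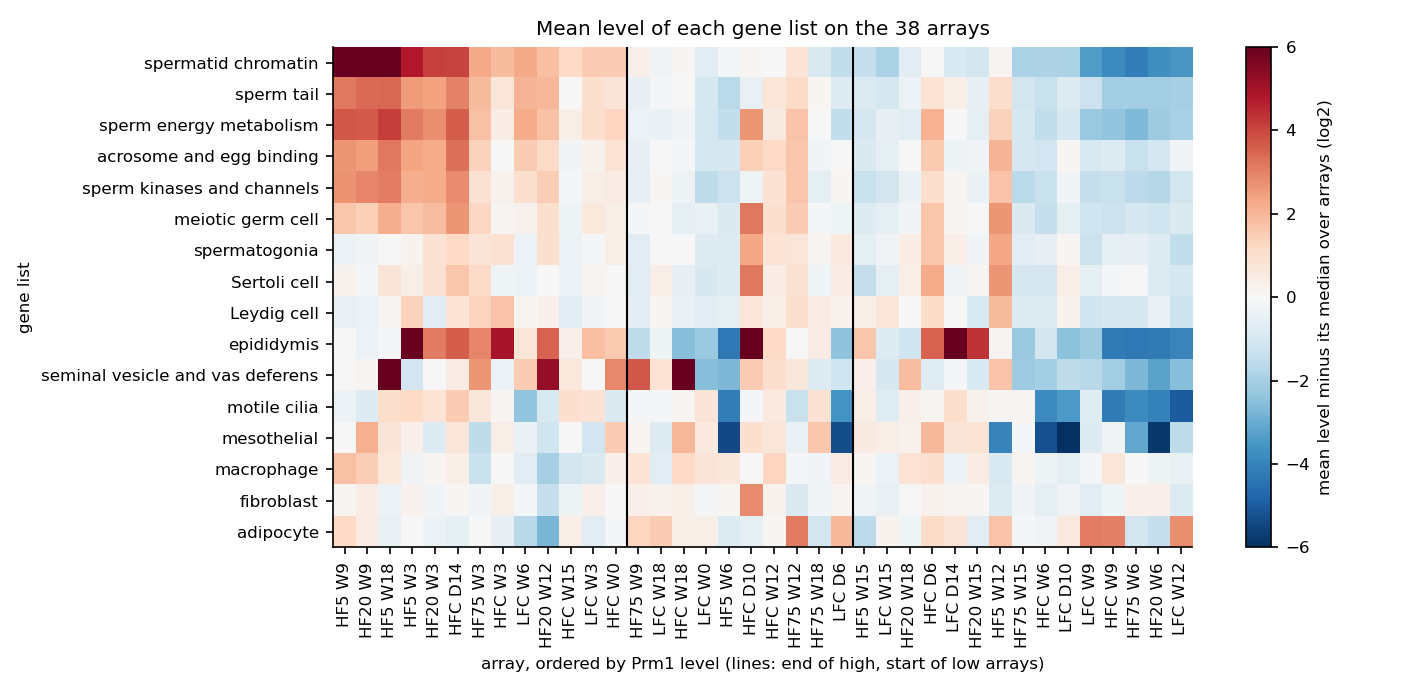
Mean level of each of 16 gene lists on each of the 38 arrays, ordered by Prm1, as the difference from the median of that list over the arrays (log2 units, colours clipped at -6 and 6). Of the sperm lists, the chromatin list alone does not overlap between the high and the low arrays. The other sperm lists are lower in the median on the low arrays and overlap between the classes. The epididymis list is high and low within both classes.

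Genes of earlier germ cells followed Prm1 in part. Of 14 meiotic genes, Mael (0.87), Stag3 (0.75), Smc1b (0.72) and Ddx4 (0.70) reached a correlation of 0.7. Sycp1, Sycp2, Sycp3, Dmc1 and Spo11, which act on the chromosomes of spermatocytes, had correlations between -0.14 and 0.44. Mael, which acts in the silencing of transposons, had levels between -0.59 and 1.11 on the 6 arrays of highest Prm1 and between -4.62 and -1.07 on the other 7 high arrays.

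None of the 7 genes of spermatogonia, the 6 of Sertoli cells or the 8 of Leydig cells reached 0.7. The highest of these was Cst9, on the Sertoli cell list, at 0.57, and it was well above background on 9 high and 2 low arrays. The mean level of the Sertoli cell list had medians of -5.15 and -5.50 on the high and low arrays, and that of the Leydig cell list of -4.67 and -5.20.

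At the other end, only genes well above background on most of the low arrays were ranked. The lowest correlations with Prm1 were those of Phf2 (-0.70), Tmem179 (-0.70), Ube4b (-0.70), Krtap11-1 (-0.69) and Vps4a (-0.69). The median of the high arrays minus that of the low arrays lay between -1.94 and -0.50 on the log2 scale. Phf2 is a histone demethylase, Ube4b a ubiquitin ligase and Vps4a an ATPase of membrane scission. All 5 overlapped between the classes.

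Crisp1 was present wherever Prm1 was high, but the reverse did not hold. Crisp1 lay between 2.40 and 8.88 (median 5.64) on the 13 high arrays. On the 15 low arrays it lay between -8.64 and 5.87 (median -0.13) and was well above background on 10 of them. A level of 2 or more was found on all 13 high arrays, on 4 of the 10 arrays between and on 6 of the 15 low arrays. With the background model called normexp and quantile scaling, which left 10 high arrays, Crisp1 was at 2 or more on 9 of them, and with the upper limit at 1 on 14 of 15.

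The 6 low arrays with Crisp1 at 2 or more were LFC at day 14 (5.87), HFC at week 6 (5.69), HF5 at week 15 (4.45), HF20 at week 15 (3.66), LFC at week 15 (3.62) and HFC at day 6 (3.16). Crisp1 was below 0 on 8 low arrays, of which HF20 at week 6 (-8.64), HFC at week 9 (-8.28) and LFC at week 12 (-7.56) were lowest. LFC at week 9 was at 0.24. Every array with a Prm1 level under -2 had a Crisp1 level under 1. These arrays are among the ones named above for their adipocyte, immediate early or mesothelial means. HFC at week 6, with Crisp1 at 5.69, also had a low mesothelial mean (-4.36).

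Over the 38 arrays the Pearson correlation of Prm1 and Crisp1 was 0.593 (two-sided permutation p = 0.0001, 0.00025 after Benjamini-Hochberg adjustment over the 5 versions of this test), and Spearman's rho was 0.542 (p = 0.00055, adjusted 0.00137). With resampling within time points, the permutation p was 0.00088 for r (adjusted 0.00147) and 0.00674 for rho (adjusted 0.00842). Without HF5 and HF20 at week 9, the 2 arrays farthest from the median Prm1 level, r was 0.617 (permutation p = 7e-05, adjusted 0.00025) and rho was 0.580 (p = 0.00035, adjusted 0.00137).

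The relation differed in sign within the classes. Within the 15 low arrays r was 0.763 (permutation p = 0.00163, adjusted 0.00204) and rho 0.693 (p = 0.00544, adjusted 0.00842). Within the 13 high arrays r was -0.637 and rho -0.593, given as values alone, since the 3 highest Prm1 values are those of saturated spots. Without these 3 arrays, a setting chosen after seeing the data, r was -0.191 and rho -0.139 over the other 10, so that the size of the negative value rests on them. Both classes were set by limits on Prm1 itself, so that the p-values within the low arrays hold only below that limit. The test within the high arrays is counted among the 5 versions of the adjustment. The difference between the 2 correlations was not tested. Over all but the 3 arrays r was 0.638 (permutation p = 4e-05, 35 arrays).

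The negative correlation on the high arrays had Crisp1 at 4.78, 2.40 and 3.07 on the 3 arrays of highest Prm1, and at 5.05 to 8.88 on the other 10. Among the 23 arrays with a Crisp1 level of 2 or more, a setting chosen after seeing the data, r was 0.017 (permutation p = 0.938). Within time points of 5 arrays r was -0.47 at week 3, 0.61 at week 6, 0.76 at week 9, 0.93 at week 12, 0.73 at week 15 and 0.41 at week 18, given as values without a test.

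**Figure D4:**
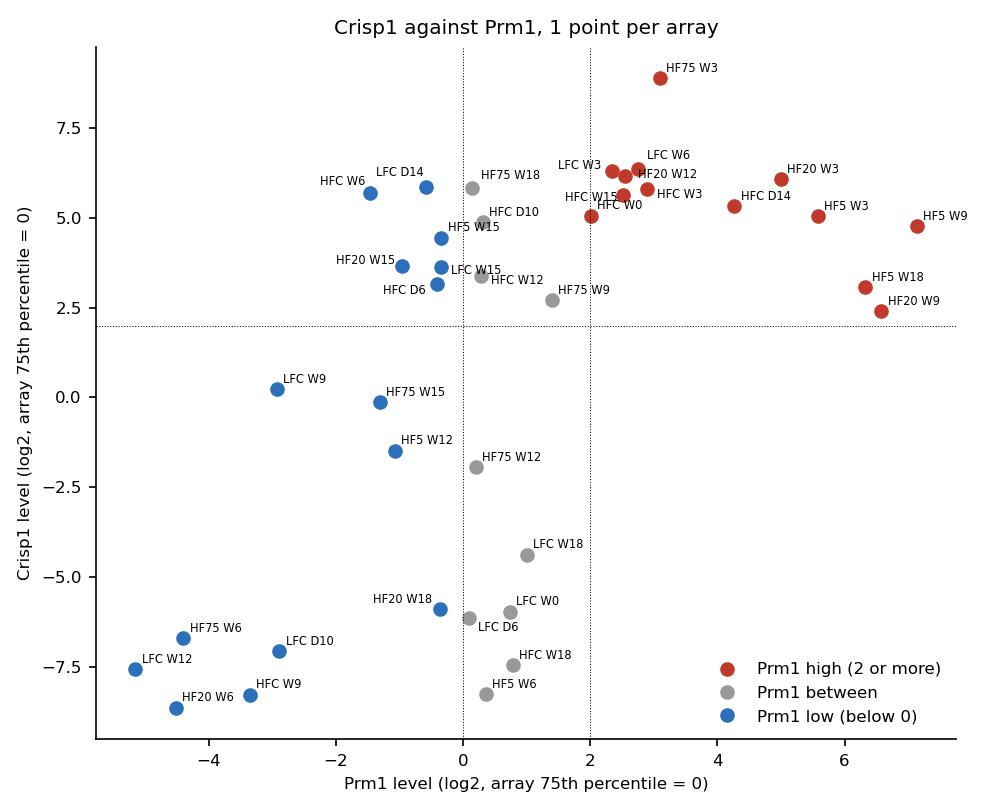
Crisp1 level against Prm1 level (both log2 signal, 75th percentile of the array at 0), 1 point per array, coloured by class, with lines at the limits 0 and 2 of Prm1 and at 2 of Crisp1. All 13 high arrays lie above the Crisp1 line, the low arrays lie on both sides of it, and no array with high Prm1 is found at the lower right.

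The genes nearest to Prm1 were not those nearest to Crisp1, while some genes went with both. No gene was shared by the 25 nearest to Prm1 and the 25 nearest to Crisp1. Among the 25 nearest to Prm1, the correlation with Crisp1 lay between 0.46 and 0.75 (median 0.56), and their ranks by it lay between 162 and 1990 of 29353 genes. A correlation of 0.7 or more with Crisp1 was found for 270 genes (0.92%). Of these, 23 also had one of 0.7 or more with Prm1, which is 8.52% of the 270 and 3.97% of the 579. They included 1 of the 25 nearest to Prm1, Smcp (0.93 with Prm1 and 0.75 with Crisp1), and 2 of the 25 nearest to Crisp1, Fxyd4 (0.75 and 0.89) and Anxa13 (0.71 and 0.89).

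With the level of Prm1 held fixed (partial correlation), the 24 genes other than Prm1 had correlations with Crisp1 between -0.31 and 0.65 (median 0.05), of which the highest was that of Smcp. With Crisp1 held fixed, their correlations with Prm1 lay between 0.84 and 0.94. All these correlations are descriptions over the same 38 arrays and are tied to Prm1 by the choice of the genes.

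Inside the classes the 24 genes other than Prm1 went with Prm1 in both, and their correlations with Crisp1 differed in sign. On the 13 high arrays the 24 genes had correlations with Prm1 between 0.72 and 0.99 (median 0.95) and with Crisp1 between -0.73 and -0.35 (median -0.61). Without the 3 arrays of saturated Prm1 spots, the medians over the other 10 were 0.86 with Prm1 and -0.11 with Crisp1. On the 15 low arrays the correlations were between 0.50 and 0.91 (median 0.67) with Prm1 and between 0.19 and 0.83 (median 0.50) with Crisp1.

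Among the low arrays, Prm2 and Smcp were lower in the median where Crisp1 was low. The median level of Prm2 was -0.73 on the 6 low arrays with Crisp1 at 2 or more and -4.86 on the 8 with Crisp1 below 0. Smcp was at -2.58 and -7.25, and the mean of the chromatin list was at -3.49 and -4.96. For Tnp1 the 2 medians, -3.09 and -3.49, lay closer together.

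The epididymis genes divided the other way. None of the 20 genes of the epididymis list had a correlation of 0.7 or more with Prm1, and 7 had one with Crisp1, which include Crisp1 itself: Rnase12 (0.93), Adam7 (0.88), Lcn12, Rnase9 and Spag11a (each 0.84) and Crisp4 (0.76). The mean level of the list lay between -3.66 and 2.61 on the high arrays and between -7.59 and 2.82 on the low arrays, with medians of -1.52 and -4.52. On the low arrays it was -0.71 in the median where Crisp1 was at 2 or more and -6.53 where Crisp1 was below 0.

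On the 3 arrays of highest Prm1 the epididymis list was low, at -3.31, -3.66 and -3.41. Adam7, Rnase9, Rnase12, Lcn12, Crisp4 and Bsph2 had correlations with Prm1 between -0.77 and -0.65 on the high arrays. Of the 20 genes of the list, 8 had a correlation above 0 with Prm1 there, and the median was -0.12. The share over all genes was 12742 of 29353. Without the 3 arrays of highest Prm1, the correlations of the 6 named genes lay between -0.42 and 0.10. Of the 20 genes, 15 then had a correlation above 0, with a median of 0.43. Cst8, a cystatin that germ cells also make, was at 0.69 on the high arrays and at 0.67 without the 3 arrays.

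Macrophage markers moved with Prm1 on the high arrays as well. Of the 12 macrophage genes, all 12 had a correlation above 0 with Prm1 there, with a median of 0.72, and none had one above 0 with Crisp1, with a median of -0.73. Without the 3 arrays of saturated Prm1 spots the medians were 0.35 and -0.58, and 1 gene had a correlation above 0 with Crisp1. Of all 29353 genes, 12742 had a correlation above 0 with Prm1 on the high arrays and 19250 with Crisp1. The medians over all genes were -0.06 and 0.27. Other lists had medians with Prm1 there of 0.44 (adipocyte), 0.40 (mesothelial), 0.20 (endothelial), 0.17 (fibroblast) and -0.36 (skeletal muscle). C1qa, a complement gene of macrophages, was at 4.46, 4.49 and 3.33 on the 3 arrays of highest Prm1 and between 0.23 and 3.13 on the other 10. Over all 38 arrays the correlations of the macrophage genes with Prm1 lay between 0.00 and 0.45, and the mean of the list had medians of 2.18 and 2.15 on the high and low arrays. The part of macrophages in the levels of the sperm genes was not tested.

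**Figure D5:**
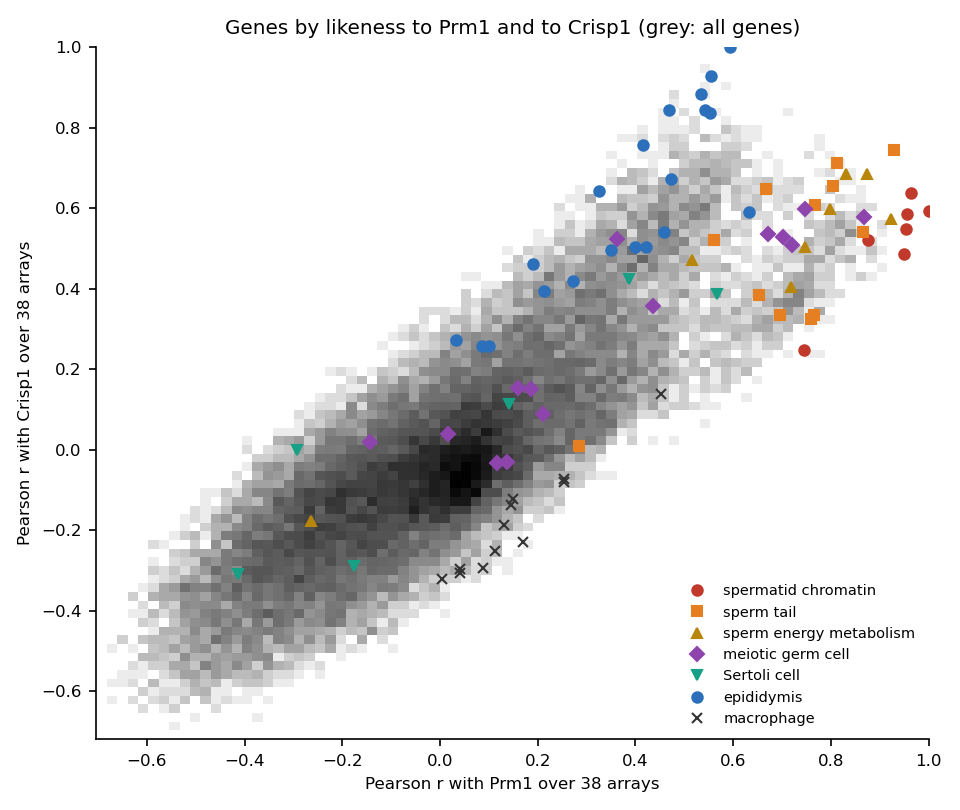
Pearson correlation with Crisp1 against that with Prm1 over 38 arrays, with the density of all 29353 genes in grey and 1 point per gene for the members of 7 lists. The chromatin genes lie at the far right, from 0.75 upwards with Prm1, and the epididymis genes lie between 0.03 and 0.63 with Prm1.

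Whether the sperm genes went with the diets was tested with limma, with the time point as a block and Benjamini-Hochberg adjustment over all probes tested. High arrays were 2 of 10 for LFC, 4 of 10 for HFC, 3 of 6 for HF5, 3 of 6 for HF20 and 1 of 6 for HF75. Between HFC and LFC, 0 of 31029 probes (0%) passed an adjusted p of 0.05, and 2818 (9.08%) had an unadjusted p under 0.05, while the methods' t-test on the same values gave 0 after adjustment and 1103 before it. Prm1 was 1.28 ± 0.82 (SE, 10 pairs of arrays) higher on HFC than on LFC, with an adjusted limma p of 0.581, and it was higher at 6 of 10 time points. Of 41 genes of the sperm lists that were tested, 0 passed and 3 had an unadjusted p under 0.05. Without week 6, where Prm1 was at 2.76 on LFC and at -1.47 on HFC, the unadjusted count was 22 of 41, all with a higher level on HFC, and 0 passed. It was between 1 and 5 when any other time point was left out. Over all probes, the unadjusted count was 3963 of 30680 without week 6. It lay between 1654 and 3393 when any other time point was left out. With all time points, 1418 of the 2818 probes were higher on HFC.

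Each dose was compared with HFC over weeks 3 to 18, and the 3 comparisons share the HFC arrays. No probe of 33711 passed in any of them in the limma fit. The unadjusted count was 1594 probes (4.73%) for HF5, 516 (1.53%) for HF20, 659 (1.95%) for HF75 and 586 (1.74%) for the mean of the doses. Prm1 differed from HFC by 2.73 ± 1.58 for HF5, 1.11 ± 1.58 for HF20 and -0.42 ± 1.58 for HF75 (log2 ± SE, 6 pairs of arrays each), and by 1.14 ± 1.29 for the mean of the doses. The Prm1 level exceeded that of HFC at 4 of 6 weeks on HF5, at 3 on HF20 and at 2 on HF75.

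For HF5 minus HFC, 20 of the 45 sperm list genes tested had an unadjusted p under 0.05, all with a higher level on HF5, and none passed after adjustment, the smallest adjusted limma p being 0.776. Over all probes, 1240 of the 1594 with an unadjusted p under 0.05 were higher on HF5. Of the chromatin genes, Tnp2 differed by 2.64 ± 0.93 (adjusted limma p = 0.821), Hils1 by 3.72 ± 1.41 (0.864) and H1f7 by 3.16 ± 1.39 (0.963). The count moved both ways with single time points: it was 1 of 39 without week 9, 1 of 44 without week 18 and 5 of 39 without week 3, and 31 of 45 without week 6, 30 of 45 without week 15 and 21 of 45 without week 12. With normexp and quantile scaling it was 29 of 45, and without the time point block 14 of 45. None passed after adjustment under any of these. Over all probes, the unadjusted count was 549 of 33153 without week 9, 814 of 32176 without week 18 and 931 of 33051 without week 3. It was 1856 of 33362 without week 6, 1699 of 31825 without week 15 and 1997 of 31737 without week 12. With normexp and quantile scaling it was 1646 of 33711, and without the time point block 1045 of 33711. The diet label of 4 arrays names the other dose, and with the dose taken from it the count was 7 of 46 for HF5 and 12 of 46 for HF20, against 5 of 45 for HF20 by the source name. With the dose from the diet label, the count over all probes was 1052 of 32485 for HF5 and 1019 of 32485 for HF20. By the source name, the sperm list count for HF20 was 10 of 45 without week 6 and 2 of 45 without week 12. It was 0 of 39 without week 3 or week 9. Over all probes it was 866 of 33362 without week 6 and 589 of 31737 without week 12. It was 454 of 33051 without week 3 and 452 of 33153 without week 9. At week 9 the adipocyte mean was 5.28 on HFC, 3.46 on HF5 and 2.75 on HF20. The immediate early mean was 0.42, 5.08 and 5.14 in the same order. Whole-number signals made up 0.151% on HFC, 44.6% on HF5 and 49.6% on HF20. HFC did not share its week 9 scan day with HF5 or HF20. The part of these differences in the counts was not tested.

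Over the time points, 13164 of 33680 probes (39.1%) passed an adjusted p of 0.05 in limma's F-test with diet as a covariate, and 17526 (52%) had an unadjusted p under 0.05. Without week 6, 5631 passed. Of the sperm list genes 5 of 45 passed, namely Tekt2, Tekt4, Cox6b2, Acr and Catsper3, a smaller share than that of all probes, and none of the 7 chromatin genes and none of the 25 genes nearest to Prm1. Prm1 had an adjusted F-test p of 0.197. Its level ran from 2.35 to 5.58 at week 3 (median 3.09), from -4.52 to 2.76 at week 6 (median -1.47) and from -0.37 to 6.33 at week 18 (median 0.78), so that weeks 6 and 18 each held high and low arrays. Of the 20 epididymis genes 10 passed. Each scan day held arrays of a single time point, so that differences between time points cannot be told apart from those between scan days. The arrays of weeks 3, 6, 9 and 18 were each scanned on more than 1 day. In these weeks the scan day differed between diets.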

How the data were processed

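Total RNA of 38 samples was labelled with Cy3 and hybridised to Agilent mouse arrays, a single sample on each. Per the file headers, the deposited processed signal is an intensity from Agilent Feature Extraction, background-subtracted and detrended within an array and not normalised between arrays. The series table of the authors gives log2 ratios against LFC at each time point. A version of them recomputed from the scanner files had a Pearson correlation of 0.992 or more, and the table was used as an alternative.

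The level of a probe was the log2 processed signal minus the log2 75th percentile of the array's non-control spots, without outlier spots and with replicate spots averaged (40628 probes, of which 28136 were matched to a RefSeq accession). A gene is represented by its probe of highest mean level. Named genes were Prm1, Crisp1, list members, the 25 of highest (with and without list members) and the 5 of lowest correlation with Prm1, and the genes without overlap. The 25 of highest correlation, with Prm1 or with Crisp1, were taken from genes well above background on most high arrays. The 5 of lowest were taken from genes well above background on most low arrays. The arrays, the 23 gene lists and the rules were chosen with earlier results of these data known. The dose came from the source name. Diets and time points were tested with limma 3.58.1 in R 4.3.3 (two-sided, threshold 0.05) on probes well above background on enough arrays of a diet, and correlations with 100000 permutations. Scripts were tested on simulated data. The number of arrays limits the precision, and for normexp an offset of 50 was used.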

Additional observations from a re-analysis of the deposited data

Results flagged for a closer look

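In 4 of 160 sets of arrays of a diet examined, for levels of the named genes and means of the lists, an array at 1 end lay far from all others of its diet by Dixon's criterion, which chance alone meets in about 1 set in 20. Among the 10 HFC arrays, H2al1k was at -7.18 at week 9, against -4.47 to -1.53 on the others, and Smcp was at -8.31 on the same array, against -3.17 to 1.29. Prm1 was at -3.36 on that array, the lowest of the HFC arrays. Among the 6 HF75 arrays, Lrrc18 was at -8.40 at week 6, against -4.99 to -3.46, on an array with a Prm1 level of -4.40. Among the 10 LFC arrays, the mean of the acrosome list was at -3.49 at week 6, against -6.09 to -4.84, on the LFC array of highest Prm1 (2.76).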

How the results depend on the processing

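The 9 genes without overlap between high and low arrays were kept under every alternative for the classes other than an upper limit of 1, which kept 1 of them. The number of probes higher on every high array was 17 with quantile scaling, 21 with normexp and quantile scaling, 29 without the dimmest array, 2 with an upper limit of 1, 116 with an upper limit of 3 and 64 with a lower limit of -1, where 8 probes were lower. With the Prm1 probe of second highest mean level it was 266 (2 lower), with 5 high and 26 low arrays, and with the remaining Prm1 probe 60, with 7 high and 25 low arrays. An upper limit of 3 left 7 high arrays and a lower limit of -1 left 9 low arrays. Leaving out single arrays, a setting chosen after seeing the data, gave between 11 and 29. The correlation of Prm1 with Crisp1 was 0.427 with the second Prm1 probe (permutation p = 0.00721), 0.637 with the remaining probe and 0.638 without the 3 arrays of saturated Prm1 spots. It lay between 0.536 and 0.656 when a time point was left out, and was 0.597 without HFC and HF75 at week 12. It was 0.017 among the arrays with Crisp1 at 2 or more. Why these values moved was not tested.

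No alternative gave a probe that passed for any comparison of diets. The number passing for time points was 4028 where only probes well above background on every array were tested, and between 5631 (without week 6) and 14492 (without day 10) when a time point was left out. The difference in Prm1 changed sign for HF20 minus HFC without week 9 (-0.66, with values up to 2.03 when other time points were left out), for HF75 minus HFC without week 6 (0.08) and without week 15 (0.26, range from -1.45), and for the mean of the doses without week 9 (-0.31, range up to 2.04). Arrays of different diets were paired by time point, which was a block in all comparisons of diets, and without that block no probe passed either. No paired analysis was possible by replicate number, because the numbers in use only name the arrays of a diet in order. Genes near the background have limited precision on the dimmest array, where their values lie near -3.9.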

Other observations

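Genes nearest to Crisp1 across the 38 arrays were Serpina1f (0.97), Spink8 (0.96), Defb28 (0.96), Serpina16 (0.95) and Wfdc10 (0.94), and further members of the 25 were the beta-defensins Defb43, Defb2 and Defb42, the whey acidic protein family members Wfdc16, Wfdc6b, Wfdc9, Wfdc13 and Wfdc15b, and Npy. Protease inhibitors and defensins are typical secretions of the epididymal epithelium. Of these 25 genes, 3 are on the epididymis list (Crisp1, Rnase12 and Adam7), and their correlations with Prm1 lay between 0.47 and 0.75.

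Genes of the seminal vesicle were high on arrays of week 18. The mean of 9 seminal vesicle and vas deferens genes was 4.78 on HF5 and 3.83 on HFC at week 18, against -0.08 or less on all other arrays. Prm1 was at 6.33 on the first and at 0.78 on the second of these arrays. On HFC at day 10, with a Prm1 level of 0.31, the means of the meiotic list (-2.38) and of the Sertoli cell list (-2.13) were higher than on any other array, and the mean of the fibroblast list was 6.56.

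The 3 probes of smallest p for HF20 minus HFC were those of Krt33a, Ccin and LOC665084. They differed by -3.19 ± 0.74, 1.43 ± 0.36 and 2.34 ± 0.60 (SE) in that order, and none passed after adjustment. Ccin codes for calicin of the sperm head. For HF5 minus HFC the 3 probes were Ccdc38 at 3.83 ± 0.81, Gm7375 at 2.81 ± 0.62 and Ghrl at 2.13 ± 0.49, each with an adjusted limma p of 0.776.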
